A study of Mus musculus with 2 samples.

Results

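Iron enters, rests in and leaves a cell through a small set of proteins, and 10 of their genes are described here: Trf, Tfrc, Slc11a1, Slc11a2, Steap2, Steap3, Fth1, Ftl1, Slc40a1 and Cp. They were chosen by symbol, and all 10 were found among the 32285 genes of the deposited single-cell count matrices. The study asked how loss of Slc31a1, the gene of the copper importer CTR1, alters bone marrow stromal cells, which are the plastic-adherent cells of flushed marrow. The control library (WT) came from mice with both Slc31a1 alleles floxed and no Cre, and the other (cKO) from littermates that carried the same floxed alleles and 1 copy of Prrx1-Cre, which is active in limb mesenchyme and not in blood cells. All mice were on the C57BL/6J background, femur and tibia marrow was cultured without osteogenic medium or drug, and non-attached cells were washed off after 48 h. The age of the mice and the number behind each library are not given in the sources used here. With 1 library per genotype, no test across samples exists, and every interval below covers counting error only and compares these 2 libraries.

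In plasma, iron travels bound to transferrin (Trf) and is taken up by the transferrin receptor (Tfrc). In the endosome it is reduced by metalloreductases of the STEAP family and moved into the cytosol by DMT1 (Slc11a2), while NRAMP1 (Slc11a1) moves iron out of the phagosomes of macrophages. Ferritin, a shell of heavy (Fth1) and light (Ftl1) chains, stores it. Ferroportin (Slc40a1) is the exporter, and ceruloplasmin (Cp), a copper-dependent ferroxidase, oxidises the iron that leaves. Marrow macrophages are known for recycling the iron of engulfed red cells and for returning it through ferroportin.

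Several of these mRNAs carry iron-responsive elements, short hairpins in the untranslated regions (UTRs) to which iron regulatory proteins bind when iron is low. Binding in the 5' UTR blocks translation, and binding in the 3' UTR stabilises the mRNA, so a ferritin or ferroportin mRNA level does not by itself give the protein level. The elements are printed because they are the sequence feature that some of the 10 genes share. A search of GENCODE M21 transcripts (GRCm38) for CAGTGN after a bulged C, flanked by a stem of 5 bases with at least 4 of 5 pairs, G-U pairs included, found a match in 5 of the 10 genes. It was run on the transcript strand of annotated UTRs alone, with A, C or T as the last loop base. The share of 21864 protein-coding genes with a match was 0.581% in the 5' UTR, 2.99% in the 3' UTR and 3.55% in either. That share was taken over transcripts tagged basic in GENCODE, while the 10 genes were searched over all their protein-coding transcripts. The matches are written 5′ to 3′ on the transcript strand, with T for U and the 6 loop bases in capitals.
Fth1, 5' UTR, chr19:9982733-9982759, plus strand: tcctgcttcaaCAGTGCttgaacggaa
Ftl1, 5' UTR, chr7:45459780-45459806, minus strand: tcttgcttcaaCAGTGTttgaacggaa
Slc40a1, 5' UTR, chr1:45925466-45925492, minus strand: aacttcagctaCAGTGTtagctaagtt
Tfrc, 3' UTR, chr16:32631220-32631246, plus strand: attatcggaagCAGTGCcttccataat
Tfrc, 3' UTR, chr16:32631599-32631625, plus strand: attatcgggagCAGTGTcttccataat
Tfrc, 3' UTR, chr16:32631664-32631690, plus strand: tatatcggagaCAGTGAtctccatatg
Tfrc, 3' UTR, chr16:32631711-32631737, plus strand: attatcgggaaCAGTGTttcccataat
Slc11a2, 3' UTR, chr15:100395154-100395180, minus strand: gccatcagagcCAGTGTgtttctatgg
The matches of Fth1, Ftl1, Slc40a1 and Tfrc paired at 5 of 5 stem positions and that of Slc11a2 at 4 of 5. Cp, Trf, Slc11a1, Steap2 and Steap3 had no match to these letters in their annotated UTRs.

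The matrices held 9125 WT barcodes with 152398639 unique molecular identifiers (UMIs) in all and 6140 cKO barcodes with 126031142, of which 7637 and 5263 cells were kept. The libraries shared 11 barcodes, 0.121% of WT and 0.179% of cKO barcodes. The labels name the cells mesenchymal stem cells, but 48.8% of WT and 27.0% of cKO cells were mesenchymal-like by their markers (3728 and 1419 cells) and 36.2% and 48.7% macrophage-like (2766 and 2564 cells). Median depth was 13967 and 61899 UMIs in mesenchymal-like cells and 9670.5 and 7804.5 in macrophage-like cells, in WT and cKO. A shallow stromal state, unnamed state 0, which macrophage transcripts lead, held 1519 of the WT but 190 of the cKO mesenchymal-like cells. Slc31a1 checked the labels. It was at 42.3 and 14.3 CPM (UMIs per 1000000 UMIs of the class, here and throughout) in mesenchymal-like cells and at 69.9 and 72.4 CPM in macrophage-like cells. Of 8 erythroid markers, which define another iron-rich lineage, the summed level was below 1 CPM in macrophage-like, mesenchymal-like, neutrophil-like and osteoclast-like cells of both libraries.

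**Figure D1:**
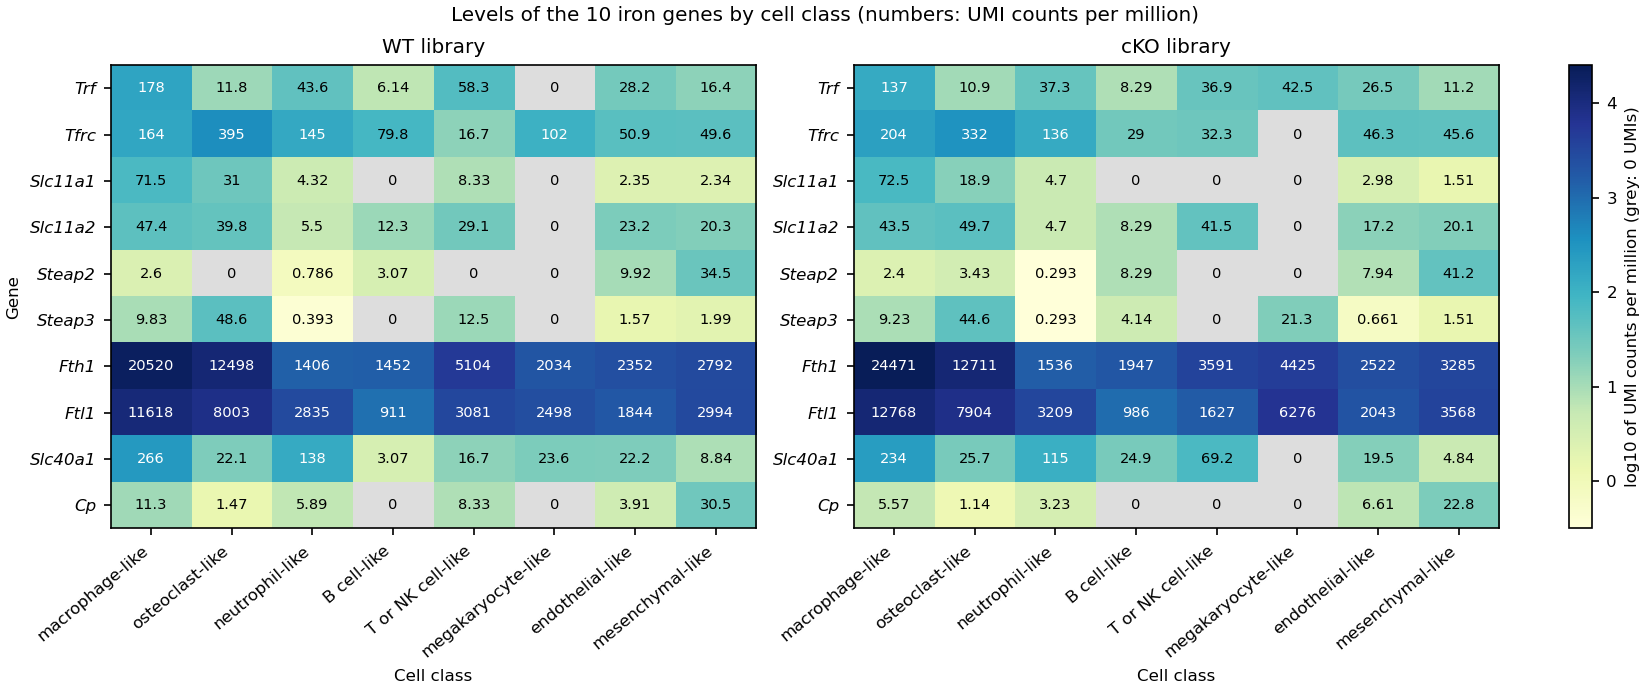
Level of each iron gene (rows) in each named cell class (columns) in the WT library (left) and the cKO library (right), in CPM, with colour for its log10, grey for 0 UMIs and rows to be read along the classes. Fth1 and Ftl1 were highest in macrophage-like cells, Tfrc and Steap3 in osteoclast-like cells, and Cp and Steap2 in mesenchymal-like cells, in both libraries.

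In these cultures 5 of the 10 iron genes were highest in macrophage-like cells among the named classes. Unnamed clusters were left out of this ranking. Macrophage-like cells had the highest level of Trf, Slc11a1, Fth1, Ftl1 and Slc40a1 among the 8 named classes in both libraries, and osteoclast-like cells that of Tfrc and Steap3. Cp and Steap2 were highest in mesenchymal-like cells, and Slc11a2 in macrophage-like cells of WT and osteoclast-like cells of cKO. Clusters were formed from the same cells, without the genes of the iron lists, so these levels are a description.

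Transferrin, better known as a liver product, was read at 178 CPM in WT and 137 CPM in cKO macrophage-like cells, and at 16.4 and 11.2 CPM in mesenchymal-like cells. Macrophage-like cells stood above the other named classes in WT. In cKO their interval met that of the megakaryocyte-like class, which has 2 Trf UMIs. Neutrophil-like cells, at 43.6 and 37.3 CPM, had the next level among classes with over 100 Trf UMIs in both libraries. The Trf gene (ENSMUSG00000032554, chr9:103204001-103230444, minus strand) overlaps the gene model Gm20425 on the same strand, so reads could be split between them.

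Tfrc (ENSMUSG00000022797) was highest in osteoclast-like cells, multinucleated bone-resorbing cells of the macrophage lineage, at 395 CPM in WT (95% interval 349 to 445) and 332 CPM in cKO (306 to 360). These rest on 32 and 82 cells. Macrophage-like cells had 164 and 204 CPM, neutrophil-like cells 145 and 136 CPM and mesenchymal-like cells 49.6 and 45.6 CPM. Macrophage-like and neutrophil-like intervals overlapped in WT and were apart in cKO. Osteoclast-like cells were thus apart from each of the other named classes in both libraries.

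Of the transporters that move iron out of vesicles, Slc11a1 was the more restricted. NRAMP1 is a phagosome protein of macrophages, and C57BL/6 strains carry a loss-of-function allele of its gene. Its mRNA was at 71.5 and 72.5 CPM in macrophage-like cells, 31.0 and 18.9 CPM in osteoclast-like cells and 4.32 and 4.70 CPM in neutrophil-like cells. Slc11a2, the endosomal transporter of the transferrin cycle, was spread more evenly, with 47.4 and 43.5 CPM in macrophage-like, 39.8 and 49.7 CPM in osteoclast-like and 20.3 and 20.1 CPM in mesenchymal-like cells. Its macrophage-like and osteoclast-like intervals overlapped in both libraries. Slc11a2 overlaps Gm5475 on the other strand.

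The STEAP reductases divided by lineage. Steap3, which reduces iron in the endosomes of red cell precursors, was at 48.6 and 44.6 CPM in osteoclast-like, 9.83 and 9.23 CPM in macrophage-like and 1.99 and 1.51 CPM in mesenchymal-like cells. The osteoclast-like interval met that of the T or NK cell-like class in WT, which has 3 Steap3 UMIs. In cKO it met that of the megakaryocyte-like class, which has 1. Steap2, which reduces iron and copper, was at 34.5 and 41.2 CPM in mesenchymal-like and 2.60 and 2.40 CPM in macrophage-like cells. After every cell was thinned to 5000 UMIs, 16.7% of 2757 WT and 16% of 1272 cKO mesenchymal-like cells held a Steap2 UMI, against 1.14% of 2113 and 1.48% of 1684 macrophage-like cells. Thinning left out 971 and 147 mesenchymal-like and 653 and 880 macrophage-like cells, and the unthinned shares were 44.8% and 74.1% against 2.82% and 2.22%. The order of the libraries in mesenchymal-like cells thus differed with depth, while the gap between the classes remained.

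Ferritin made up a visible part of the macrophage mRNA. Fth1 was at 20520 CPM in WT and 24471 CPM in cKO macrophage-like cells, 12498 and 12711 CPM in osteoclast-like cells, 2792 and 3285 CPM in mesenchymal-like cells and 1406 and 1536 CPM in neutrophil-like cells. Ftl1 was at 11618 and 12768 CPM, 8003 and 7904 CPM, 2994 and 3568 CPM and 2835 and 3209 CPM in the same order. Osteoclast-like cells came next after macrophage-like cells among the named classes for both chains in both libraries. The shallow unnamed cluster 10 (67 and 148 cells, median depths of 1697 and 1523.5 UMIs), which has Ftl1 among its leading genes, was above both, at 26486 and 32059 CPM of Fth1 and 19046 and 23760 CPM of Ftl1. It also had 208 CPM of Trf in WT (139 to 299) and 99.1 CPM in cKO (65.9 to 143), on 29 and 28 UMIs. Ftl1 has a near-identical copy, Ftl1-ps1, counted on its own at 265 and 362 CPM in macrophage-like cells and 60.3 and 76.7 CPM in mesenchymal-like cells. The Ftl1 counts are thus uncertain, by an amount that these levels do not give.

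The ratio of heavy-chain to light-chain UMIs differed by class. It was 1.77 in WT and 1.92 in cKO macrophage-like cells and 1.56 and 1.61 in osteoclast-like cells, but 0.932 and 0.921 in mesenchymal-like cells and 0.496 and 0.479 in neutrophil-like cells. Their counting intervals did not overlap between these 4 classes within a library. The neutrophil-like class therefore ranked low for Fth1 and near the mesenchymal-like class for Ftl1. Within macrophage-like cells the ratio was highest in the resident macrophage-like subset (2.47 and 2.70) and in unnamed subset 2 (2.40 and 2.82). UMIs of different genes are not on 1 scale, so the ratio is read between classes and not as chains per shell.

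Ferroportin mRNA was at 266 CPM in WT and 234 CPM in cKO macrophage-like cells, 138 and 115 CPM in neutrophil-like cells, 22.1 and 25.7 CPM in osteoclast-like cells and 8.84 and 4.84 CPM in mesenchymal-like cells. Macrophage-like and neutrophil-like cells were apart from each other in both libraries. At 5000 UMIs per cell, a Slc40a1 UMI was found in 53.1% (WT) and 46.1% (cKO) of macrophage-like, 38.8% of 224 and 43.5% of 285 neutrophil-like, and 6.27% and 2.75% of mesenchymal-like cells. Unthinned, these were 69.1% and 61.6%, 55.0% and 61.1%, and 19.5% and 19.7%, with median depths in neutrophil-like cells of 6857 and 8947.5 UMIs.

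Cp, whose product needs copper to act on iron, was read at 30.5 and 22.8 CPM in mesenchymal-like cells, 11.3 and 5.57 CPM in macrophage-like cells and 5.89 and 3.23 CPM in neutrophil-like cells. Among named classes with at least 50 cells in each library, mesenchymal-like cells were apart from the others. At 5000 UMIs per cell 14.6% and 9.98% of mesenchymal-like cells held a Cp UMI, against 5.92% and 3.21% of macrophage-like cells (unthinned 37.4% and 50.5% against 9.18% and 4.49%). Cp overlaps Hps3 on the other strand.

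These low levels were described with the class markers as a scale, since RNA free in the suspension keeps its genes in 1 ratio in every class of a library. The 10 macrophage markers were read in mesenchymal-like cells at 3.11% to 4.22% of their macrophage level in WT and 1.54% to 2.78% in cKO, with none at 0 and a summed level of 388 and 195 CPM. Slc40a1, at 3.32% and 2.06%, and Slc11a1, at 3.28% and 2.08%, lay inside that range. Trf (9.24% and 8.20%), Fth1 (13.6% and 13.4%), Steap3 (20.2% and 16.4%), Ftl1 (25.8% and 27.9%), Tfrc (30.3% and 22.4%) and Slc11a2 (42.7% and 46.2%) lay above it. So the stromal levels of ferroportin and NRAMP1 mRNA, as a percent of the macrophage level, were within the range of the macrophage markers. The other 6 genes were above it. Where the macrophage transcripts in mesenchymal-like cells came from was not tested.

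**Figure D2:**
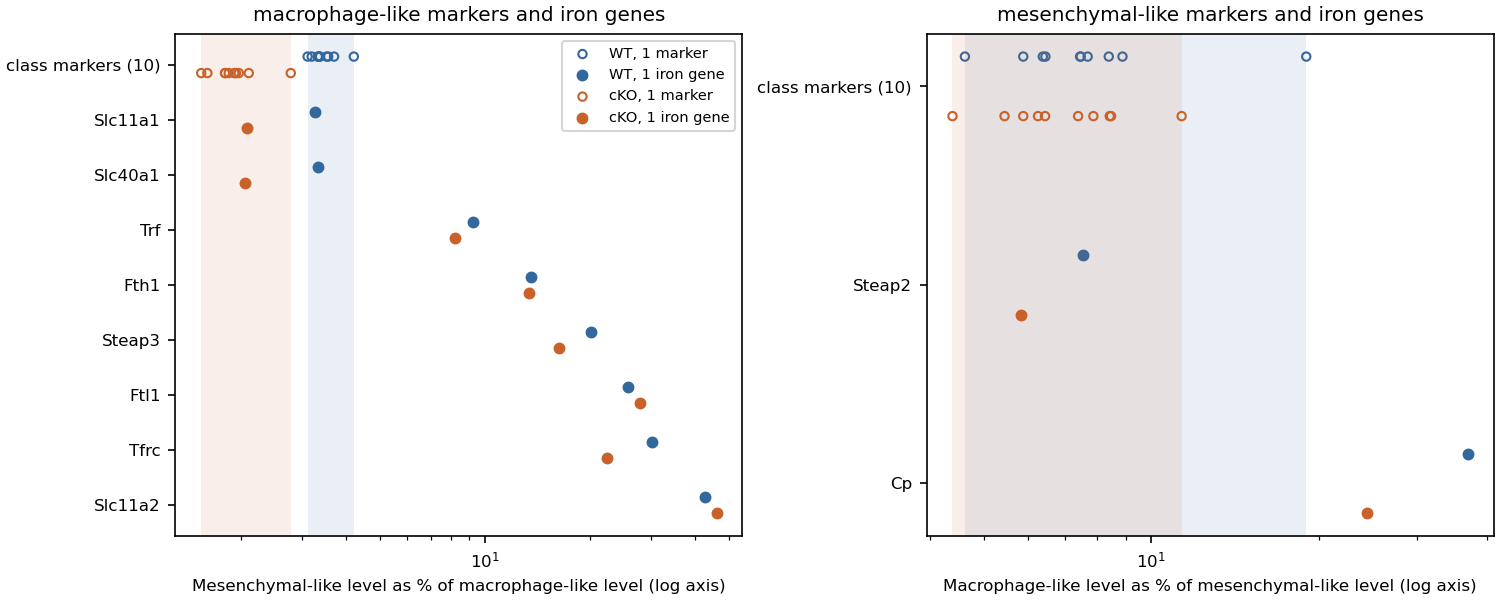
Level in the other class as a percent of the level in the class where the gene is high (log axis), for iron genes (filled) and for the 10 markers of that class (open), with shaded bands over the range of the markers in WT (blue) and cKO (orange). In mesenchymal-like cells (left) Slc11a1 and Slc40a1 fall inside the bands of the macrophage markers, and in macrophage-like cells (right) Steap2 falls inside those of the mesenchymal markers and Cp above them.

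Set against marker UMIs, Slc40a1 held nearly 1 value over the stromal states. Per 100 UMIs of the 10 macrophage markers, Slc40a1 had 2.45 UMIs in WT and 2.31 in cKO macrophage-like cells, and 2.27 (95% interval 2.13 to 2.43) and 2.48 (2.24 to 2.74) in mesenchymal-like cells. In the 4 stromal states with at least 50 cells in each library it lay between 2.1 and 2.93 in WT and between 2.19 and 2.65 in cKO. Within macrophage-like cells, by contrast, the same measure ran from 0.906 in the lipid-associated macrophage-like subset to 6.85 in the resident macrophage-like subset of WT. Trf varied over the stromal states, with 1.64 and 1.35 UMIs in macrophage-like cells, 2.08 and 2.05 in the shallow stromal state 0, and 7.85 and 8.39 in the deep stromal state led by Cxcl14 and H19. It was 5.83 and 7.05 in the cycling-like and 6.25 and 6.26 in the pre-osteoblast-like state, so Trf lay further above its value over the macrophage-like class in the 3 deep states than in state 0. Trf also varied within macrophage-like cells, from 1.12 and 0.972 in the lipid-associated to 5.76 (5.03 to 6.55) and 5.25 (4.48 to 6.11) in the resident macrophage-like subset. The resident values were thus near those of some deep stromal states. Of the smaller states, the shallow states 4 and 5 had 2.6 (2.13 to 3.14) and 5.21 (2.94 to 8.6) in WT.

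In the other direction the 10 mesenchymal markers were read in macrophage-like cells at 4.63% to 19% of their mesenchymal level in WT and 4.4% to 11.3% in cKO. Steap2, at 7.54% and 5.84%, lay inside that range. Cp, at 37.0% and 24.4%, lay above it. In neutrophil-like cells the median of the macrophage markers was 2.93% and 1.94% of the macrophage level, with Lyz2, which neutrophils also express, at 115% and 133%. Slc40a1 stood at 51.7% and 49.1% there and Trf at 24.5% and 27.2%, so both were above the marker median in neutrophil-like cells. The full range of the 10 markers, the scale used above, held both. It ran from 0% to 115% in WT and from 1.07% to 133% in cKO, with Lyz2 at the top.

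Among the 7 subsets of macrophage-like cells, the export and uptake genes shared a peak. The resident macrophage-like subset (60 and 65 cells), led by markers such as Vcam1 and Cd163, had 780 CPM of Slc40a1 in WT (693 to 876) and 1020 CPM in cKO (907 to 1142), 726 and 771 CPM of Tfrc and 655 and 600 CPM of Trf. All of these were apart from every other subset of the same library. The subset was shallow, with median depths of 5178.5 and 4317 UMIs, and held 2516 and 2275 CPM of mesenchymal markers, whose part in these levels was not tested. Resident macrophages of marrow and spleen are known for engulfing red cells.

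Unnamed subset 1, led by F13a1 and Fcgr2b, followed for Slc40a1 with 494 CPM in WT and 511 CPM in cKO. Unnamed subset 2 had 492 and 446 CPM, but its cells were shallow, with median depths of 3387 and 2683 UMIs, and held the most mesenchymal marker RNA of the 7 (3104 and 2681 CPM summed). The 5 subsets other than subset 2 and the resident macrophage-like subset held 801 to 1166 CPM of these markers in WT and 659 to 1009 CPM in cKO. The lipid-associated macrophage-like subset had 103 and 131 CPM and the cycling-like subset 146 and 140 CPM. From the lowest to the highest subset Slc40a1 thus ranged from 103 to 780 CPM in WT and from 131 to 1020 CPM in cKO, while Fth1 ranged from 13199 to 24193 CPM in WT and from 17324 to 28411 CPM in cKO. For Fth1 the order was another. The lipid-associated subset was highest and the MHC class II-like subset lowest in both libraries.

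The MHC class II-like subset (52 and 43 cells) had the lowest Tfrc level, 56.6 and 56.3 CPM, and 95.1 and 120 CPM of Slc11a1. The Slc11a1 range over all 7 subsets was narrower than that of Slc40a1, from 49.1 to 97.1 CPM in WT and from 57.8 to 120 CPM in cKO, with the cycling-like subset lowest in both libraries. Cp was highest in unnamed subset 1, at 23.9 CPM in WT, and at 14.6 CPM in cKO. Per 100 mesenchymal marker UMIs, Cp there had 2.05 and 1.45 UMIs, against 0.195 and 0.160 in mesenchymal-like cells themselves. Steap2 had 0.159 and 0.145 in that subset, against 0.220 and 0.288 in mesenchymal-like cells.

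**Figure D3:**
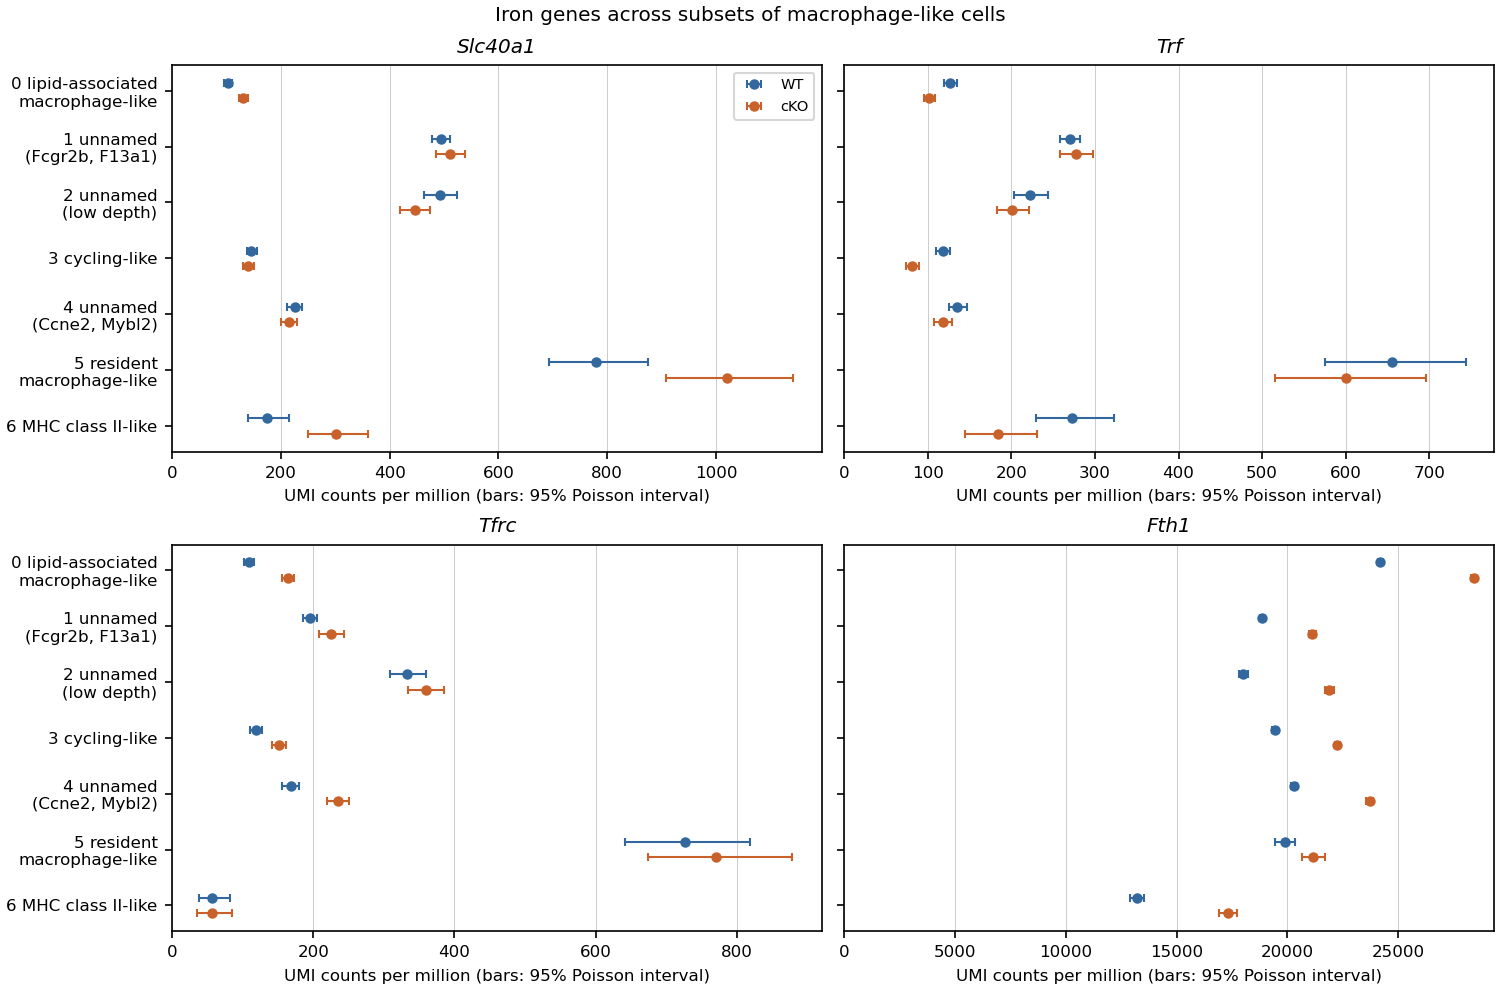
Levels of Slc40a1, Trf, Tfrc and Fth1 in CPM (linear axes from 0) in the 7 subsets of macrophage-like cells, in WT (blue) and cKO (orange), with 95% Poisson intervals that cover counting error only. The resident macrophage-like subset is highest for Slc40a1, Trf and Tfrc, and the lipid-associated macrophage-like subset for Fth1.

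Among the 3 deep stromal states Cp and Fth1 were both highest in the pre-osteoblast-like state (310 and 299 cells), stromal cells with early bone-forming genes. Cp was at 44.0 CPM in WT (40.9 to 47.2) and 28.3 CPM in cKO (26.1 to 30.6) there, above the 24.1 and 19.1 CPM of the cycling-like state and the 26.3 and 22.4 CPM of the state led by Cxcl14 and H19. Fth1 was at 3613 and 4752 CPM in the pre-osteoblast-like state, 2148 and 2578 CPM in the cycling-like and 2432 and 2690 CPM in the Cxcl14 and H19 state. Tfrc ran opposite to Fth1 over these 3 states, with 30.4 and 27.4 CPM in the pre-osteoblast-like, 58.4 and 64.0 CPM in the cycling-like and 42.2 and 38.1 CPM in the Cxcl14 and H19 state. The heavy to light ratio followed Fth1, at 1.06 and 1.22, 0.706 and 0.751, and 0.802 and 0.777. In these 3 deep states the summed macrophage markers lay between 196 and 208 CPM in WT and between 130 and 157 CPM in cKO, so they spanned less than Fth1 did. Shallow state 0 had more Fth1, 4226 and 5086 CPM, beside 1333 and 1324 CPM of macrophage markers, and the small unnamed state 6 (91 and 13 cells) more Cp, 86.3 and 69.9 CPM. Slc11a2 was within 18.7 to 20.8 CPM over the 3 states and both libraries.

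**Figure D4:**
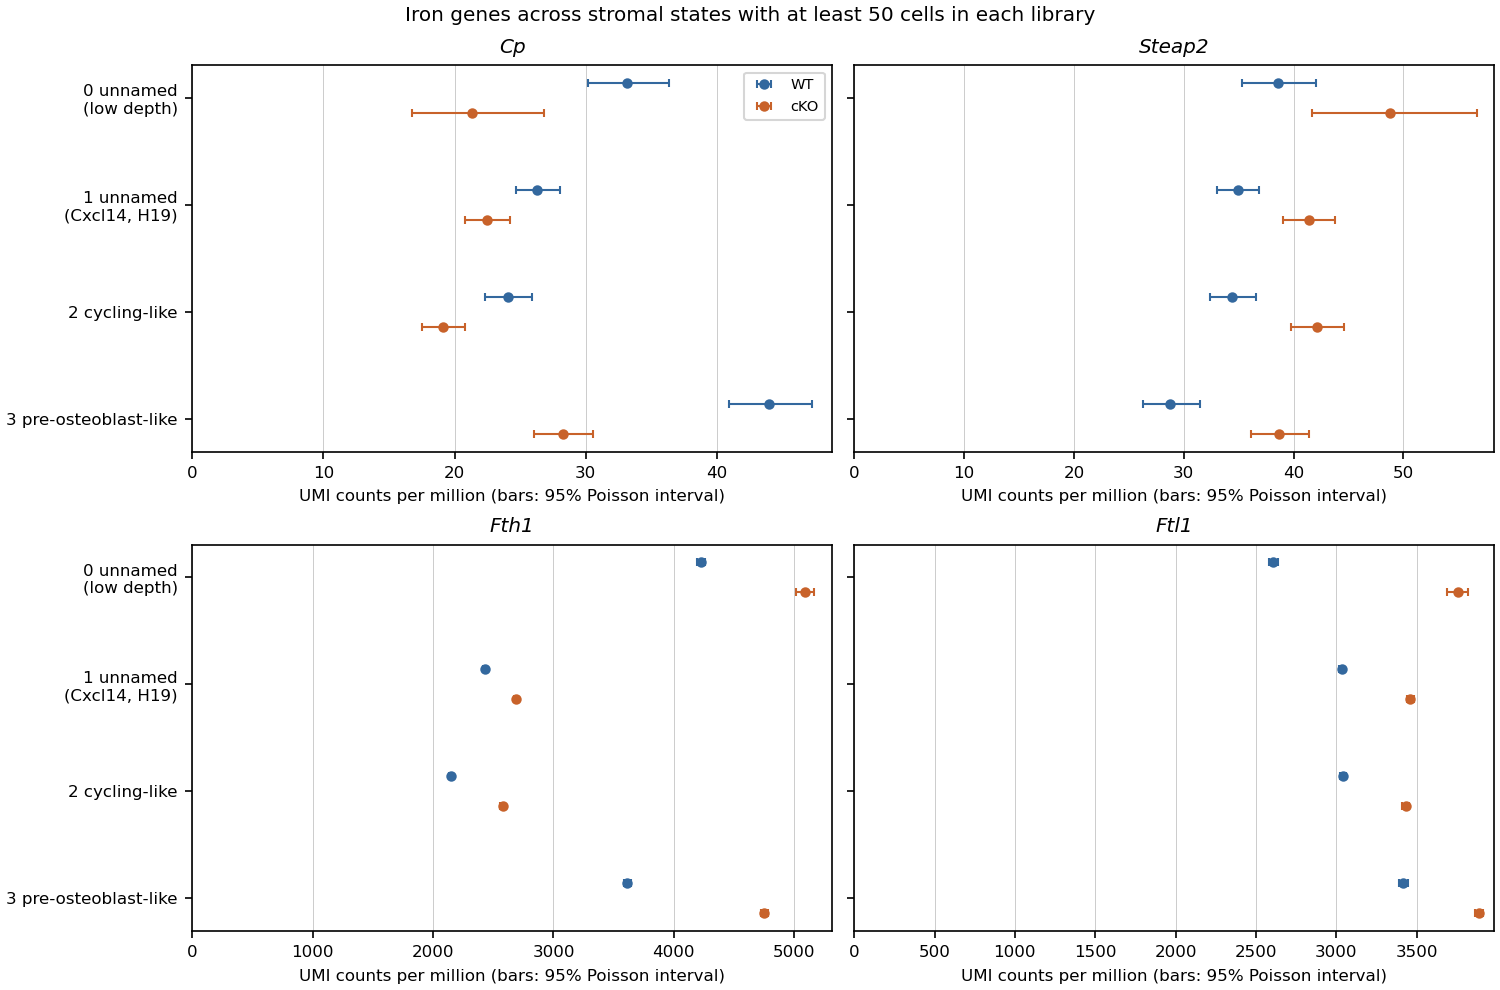
Levels of Cp, Steap2, Fth1 and Ftl1 in CPM (linear axes from 0) in the 4 stromal states that held at least 50 cells in each library, in WT (blue) and cKO (orange), with 95% Poisson intervals. In each of the 4 states Cp is lower and Steap2, Fth1 and Ftl1 are higher in the cKO library.

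Between the libraries the iron genes differed by small amounts in mesenchymal-like cells, the class that the Cre driver targets. Of the 10 genes, 7 reached 10 CPM in either library, of which 3 were higher and 4 lower in cKO and 0 differed by at least 1.5-fold, where 1.71% of 8941 genes did. Slc11a2, 1 of the 4, was near 1 and turned with the processing. The median log2 ratio of the 7 was -0.01, against -0.03 over all genes. All ratios below are cKO over WT.

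The ferritin genes and Steap2 were the higher ones. Fth1 had a ratio of 1.18 (1.17 to 1.18), Ftl1 of 1.19 (1.19 to 1.20) and Steap2 of 1.19 (1.14 to 1.25). In the 4 states with at least 50 cells in each library Fth1 lay between 1.11 and 1.32, Ftl1 between 1.13 and 1.44 and Steap2 between 1.18 and 1.34. The 3 genes were thus higher in cKO in each of those states, and among them the Fth1 ratio was largest in the pre-osteoblast-like state at 1.32 (1.30 to 1.33). In the 3 remaining states, each with under 50 cKO cells, Fth1 was lower in cKO (0.862, 0.835 and 0.335). Over all 7 states Fth1 was higher in 4 and lower in 3, Ftl1 higher in 6 and Steap2 higher in 5. In cells with at least 20000 UMIs the ratios were 1.23, 1.16 and 1.21.

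Trf and Cp were lower in cKO, with ratios of 0.684 (0.630 to 0.741) and 0.748 (0.706 to 0.792). Cp was lower in each of the 4 larger states, from 0.643 (0.577 to 0.716) in the pre-osteoblast-like state to 0.853 (0.771 to 0.942) in the Cxcl14 and H19 state. Over all 7 states it was lower in 6, and with the state make-up held at that of WT it was 0.731. Trf was lower in each of the 4 as well, but between 0.664 and 0.976, and its intervals in the shallow state 0 and the cycling-like state held 1. With the WT make-up its ratio was 0.780. In the pre-osteoblast-like state Trf and Cp, 2 of 7 genes measured, were past 1.5-fold, where 2.87% of 8632 genes were. In shallow state 0 Cp was the 1 of 8 measured genes past 1.5-fold (0.644), where 4.4% of 9453 genes were. No iron gene was past it in the Cxcl14 and H19 or the cycling-like state, where 1.29% and 1.38% of genes were.

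Tfrc (0.920, 0.882 to 0.960) and Slc11a2 (0.992, 0.930 to 1.06) differed little. The Tfrc ratio was 1.1 (1.03 to 1.17) in the cycling-like and 0.903 (0.836 to 0.976) in the Cxcl14 and H19 state, and 0.992 with the make-up held at WT. Over all 7 states Tfrc was lower in cKO in 5 and higher in 2, so the value at the WT make-up joins ratios on both sides of 1.

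Slc40a1 and Slc11a1, the genes inside the range of the macrophage markers, had the most extreme ratios. Slc40a1, under 10 CPM in both libraries, had 0.547 (0.485 to 0.616) and Slc11a1 0.646 (0.516 to 0.804) in mesenchymal-like cells, while the sum of the 10 macrophage markers had moved from 388 to 195 CPM, each of the 10 lower in cKO. With the WT make-up of states Slc40a1 had 0.925 and Slc11a1 0.937. Steap3 had 0.762 (0.605 to 0.955) on 206 and 126 UMIs.

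**Figure D5:**
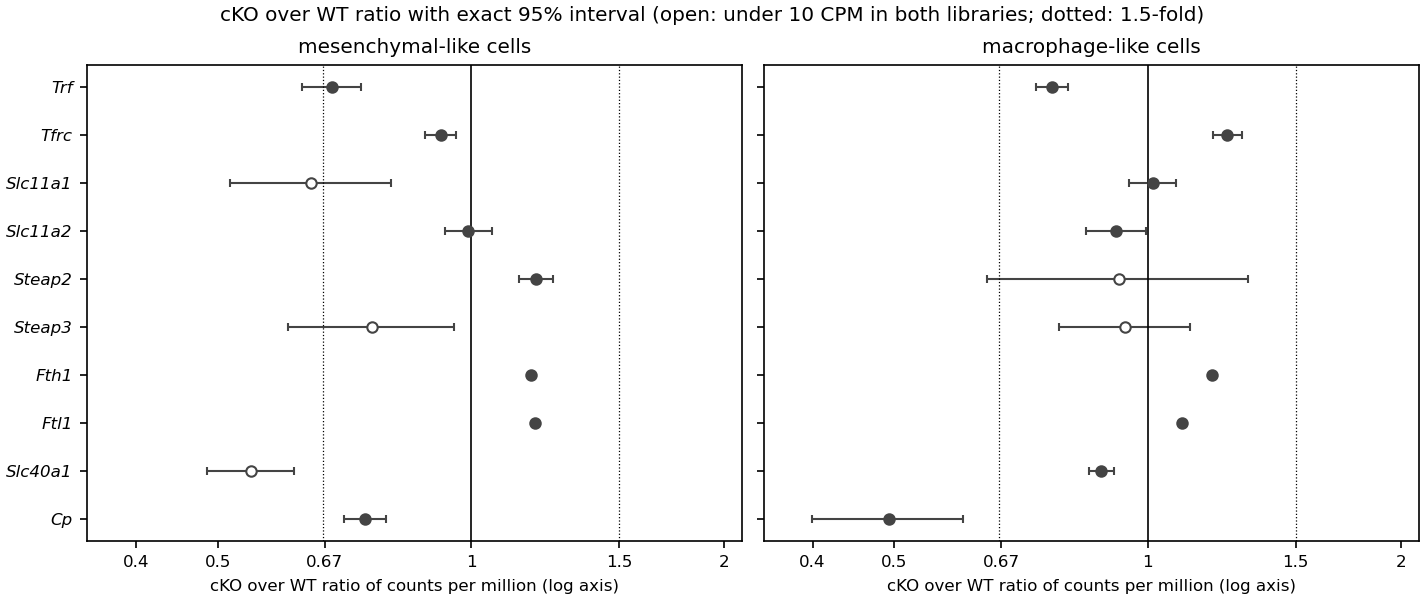
Ratio of CPM, cKO over WT (log axis), of each iron gene in mesenchymal-like cells (left) and macrophage-like cells (right), with exact 95% intervals for counting error, open points for genes under 10 CPM in both libraries and dotted lines at 1.5-fold. Fth1 and Ftl1 are above 1 in both classes, Trf and Cp below 1 in both, and Tfrc is on opposite sides.

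In macrophage-like cells, in which the Cre driver is not active, 8 genes were measured, with 4 higher and 4 lower in cKO. Cp was past 1.5-fold, 1 of 8 genes, where 1.68% of 8856 genes were. The median log2 ratio was -0.05, against -0.02 over all genes. Fth1 had 1.19 (1.19 to 1.20), close to its value in mesenchymal-like cells, and Ftl1 had 1.1 (1.09 to 1.1).

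Over the 7 subsets Fth1 was higher in cKO in 7, from 1.07 in the resident macrophage-like to 1.31 in the MHC class II-like subset. Ftl1 was higher in 6, with 0.976 (0.924 to 1.03) in the resident macrophage-like subset. Tfrc had 1.24 (1.19 to 1.29) over the class and was higher in 6 of 7 subsets, led by the lipid-associated macrophage-like subset, where it moved from 109 to 165 CPM, a ratio of 1.51 (1.39 to 1.64). There it was the 1 of 8 measured iron genes past 1.5-fold, where 2.37% of 8603 genes were. Unnamed subset 4, led by the S-phase genes Ccne2 and Mybl2, followed with 1.40 (1.27 to 1.54).

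Slc40a1 had 0.881 (0.852 to 0.912) over macrophage-like cells but was higher in cKO in 4 of the 7 subsets. The lipid-associated (1.28, 1.17 to 1.40), resident (1.31, 1.11 to 1.54) and MHC class II-like (1.73, 1.30 to 2.31) subsets were higher in cKO (the last, with under 50 cKO cells, was not counted against all genes), and unnamed subset 2 was lower (0.906, 0.829 to 0.989). Unnamed subset 1, a subset of high Slc40a1, held 856 of the WT but 385 of the cKO macrophage-like cells. With the WT make-up of subsets the ratio was 1.04, so the direction over the class turned with the mix of subsets.

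Trf had 0.770 (0.737 to 0.805) and was lower in 6 of 7 subsets, with 0.889 at the WT make-up. Its lowest ratios were in the MHC class II-like (0.672, 0.50 to 0.898) and cycling-like (0.687, 0.610 to 0.771) subsets, while unnamed subset 1 had 1.03 (0.943 to 1.12). Cp had 0.493 (0.40 to 0.604), was lower in 7 of 7 subsets and had 0.613 at the WT make-up. It rested on 339 and 132 UMIs, and in cells with at least 20000 UMIs, with 30 and 14 UMIs, the ratio was 0.724 (0.354 to 1.41). The 10 mesenchymal markers summed to 1131 and 994 CPM in macrophage-like cells, none at 0. Per 100 of their UMIs Cp had 0.999 (0.895 to 1.11) in WT and 0.560 (0.468 to 0.664) in cKO over the whole class. Within each subset this measure was lower in cKO, but the WT and cKO intervals overlapped. In unnamed subset 1 it was 2.05 (1.76 to 2.38) and 1.45 (1.03 to 1.98). The measure was not taken with the make-up held at WT. In unnamed subset 1 Cp had 0.611 (0.423 to 0.865), past 1.5-fold where 5.01% of 8768 genes were. Cp was also the iron gene past it in unnamed subset 4 (0.552, 0.317 to 0.932), where 4.3% of genes were, and in the resident macrophage-like subset, with 6 UMIs in WT and 0 in cKO, where 37.9% of genes were. No iron gene was past it in unnamed subset 2 or the cycling-like subset, where 7.65% and 3.31% of genes were. Slc11a1 (1.01, 0.952 to 1.08) and Slc11a2 (0.917, 0.846 to 0.995) differed little.

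The 2 classes were compared by the ratio of their ratios, mesenchymal over macrophage, with a counting interval. It was 0.987 (0.981 to 0.993) for Fth1, 1.08 (1.08 to 1.09) for Ftl1, 0.888 (0.810 to 0.972) for Trf, 0.740 (0.699 to 0.784) for Tfrc and 1.52 (1.23 to 1.87) for Cp, against 0.326 (0.298 to 0.357) for the deleted gene Slc31a1. None of these 5 lay as far from 1 as Slc31a1 did. In neutrophil-like cells 5 iron genes were measured and 0 were past 1.5-fold, where 6.42% of 8149 genes were. Fth1 had 1.09 and Ftl1 1.13 there, and Slc40a1 0.836 (0.722 to 0.969). In endothelial-like cells 6 were measured and 0 were past it, where 8.1% of 9283 genes were.

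The rest of iron metabolism was counted over lists of other genes. Among 24 genes of mitochondrial iron and iron-sulphur assembly, 21 were measured in mesenchymal-like cells, 17 of them higher and 4 lower in the cKO library. Their median log2 ratio was 0.06. In macrophage-like cells 15 of 21 were higher, with a median of 0.08. Over all measured genes 41.5% and 44.9% were higher in cKO. Glrx5, a glutaredoxin of iron-sulphur assembly, was at 139 and 165 CPM in mesenchymal-like cells (1.18) and 101 and 128 CPM in macrophage-like cells (1.26). The mitochondrial chaperone gene Hspa9 was at 235 and 301 CPM in macrophage-like cells (1.28) and at 455 and 453 CPM in mesenchymal-like cells. None of the 21 was past 1.5-fold in either class, where 1.71% of all measured genes were in mesenchymal-like and 1.68% in macrophage-like cells.

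Of 24 haem genes, 16 were measured in each class, and 10 were higher and 6 lower in both. The share of all genes higher in cKO was 41.5% in mesenchymal-like and 44.9% in macrophage-like cells. Hmox1, whose enzyme frees iron from haem, was at 83.2 and 121 CPM in mesenchymal-like cells (1.45, 1.41 to 1.5) and at 488 and 695 CPM in macrophage-like cells (1.43, 1.39 to 1.46). Alas1, the first enzyme of haem synthesis, and Fech, which inserts the iron, had ratios of 1.24 and 1.17 in macrophage-like cells. Hp, which encodes the haemoglobin-binding haptoglobin, was at 47.4 and 27.2 CPM in mesenchymal-like cells (0.575, 0.547 to 0.605). It was the 1 of 16 genes past 1.5-fold there, where 1.71% of 8941 genes were.

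Of 15 sensing and handling genes 14 were measured in each class. In mesenchymal-like cells 5 were higher and 9 lower, where 41.5% of all genes were higher. In macrophage-like cells 9 were higher and 5 lower, where 44.9% of all genes were higher. Bach1, a haem-sensing repressor, was at 67.0 and 52.4 CPM (0.783) and Hif1a at 365 and 292 CPM (0.80) in mesenchymal-like cells. The iron chaperone gene Pcbp1 was at 351 and 438 CPM in macrophage-like cells (1.25), and Nfe2l2, which encodes NRF2, at 277 and 233 CPM (0.840). No gene of this list was past 1.5-fold in either class, where 1.71% and 1.68% of all genes were.

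Of 16 genes of the hepcidin axis, through which bone morphogenetic proteins set the iron hormone hepcidin in liver, 9 were measured in mesenchymal-like cells, 3 higher and 6 lower, and 8 in macrophage-like cells, 3 higher and 5 lower. Id1, a response gene of that pathway, was at 17.3 and 43.4 CPM in mesenchymal-like cells (2.51, 2.37 to 2.66) and at 55.1 and 128 CPM in macrophage-like cells (2.32, 2.18 to 2.46). Its feedback inhibitor Smad7 was at 36.0 and 61.2 CPM in macrophage-like cells (1.70). The ligand gene Bmp6 was at 10.5 and 5.33 CPM in mesenchymal-like cells (0.506, 0.452 to 0.566). Past 1.5-fold were Id1 and Bmp6 in mesenchymal-like and Id1 and Smad7 in macrophage-like cells, where 1.71% and 1.68% of all genes were. The shares of all genes higher in cKO were 41.5% and 44.9%.

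Of 18 other import and redox genes, 8 were measured in mesenchymal-like cells, 4 higher and 4 lower, where 41.5% of all genes were higher. Ltf (0.340) and Lcn2 (0.386), 2 of the 8, were past 1.5-fold there, where 1.71% of 8941 genes were, and both encode neutrophil granule proteins. The 10 neutrophil markers, of which Ltf is 1, summed to 554 and 193 CPM in the same cells with none at 0. Unnamed state 4, led by the neutrophil genes Elane, Mpo and Prtn3 and with 7303 and 5913 CPM of these markers, held 469 of the WT but 29 of the cKO mesenchymal-like cells. Ltf and Lcn2 were past 1.5-fold in shallow state 0 (neutrophil markers 1095 and 412 CPM), 2 of 10 measured genes, where 4.4% of 9453 genes were. Neither was called in the 3 deep states (130 to 153 CPM in WT and 127 to 194 CPM in cKO). Fewer genes of the list reached 10 CPM there, 7 in the Cxcl14 and H19 state and 6 in each of the others. A gene under 10 CPM could not be called, so that absence is no comparison of the states. In macrophage-like cells 9 were measured, 8 higher and 1 lower, where 44.9% of all genes were higher. Lcn2 was at 1.35 and Ltf at 1.34 there, and none was past 1.5-fold, where 1.68% of 8856 genes were.

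The genes whose levels followed each iron gene most closely were taken over 22 units, the named classes and all macrophage subsets and stromal states. The measure was Pearson's r of log2(CPM + 10) in WT among 7912 genes. No minimum of cells was set, so units as small as the megakaryocyte-like class (11 WT and 8 cKO cells) are included. These units share cells and depth, so r is a description. Slc40a1 went with Cd300a (r = 0.97 in WT and 0.98 in cKO) and Fcgr4 (0.96 and 0.93), and Slc11a1 with Adap2 (0.99 and 0.98) and Ptpro (0.99 and 0.95), all genes of myeloid cells. Trf went with Scarb2 (0.94 and 0.78), the complement gene C1qa (0.94 and 0.91) and Hfe (0.94 and 0.91), whose product binds the transferrin receptor. Tfrc had looser partners, with Tsc22d3 (0.87 and 0.76) first. Among the iron genes themselves Fth1 and Ftl1 had r = 0.94 and 0.92, Trf and Slc40a1 0.91 and 0.92, and Cp and Steap2 0.81 and 0.85, while Slc40a1 and Steap2 had -0.54 and -0.70.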

How the data were processed

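The authors deposited raw UMI count matrices made with Cell Ranger 7.1.0, per the file headers, and the submitters' processing notes name mm10, GRCm38 and Seurat. The handling of intronic reads is not given in those sources. A barcode was kept if it had 500 genes, 1000 UMIs or more and no more than 15% of its UMIs from mitochondrial genes. Scrublet marked 2 cells per library and was taken to have failed, so the highest-scoring 0.8% per 1000 cells were removed as doublets, 534 in WT and 243 in cKO. Both libraries were clustered together with scanpy 1.11.5 (2000 variable genes without the iron lists, 30 components, 15 neighbours, Leiden resolution 0.5). Clusters were named from marker lists, by a naming rule set after the clusters were seen.

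Counts were summed over the cells of each class and library and scaled to CPM, with exact Poisson intervals, and ratios carry exact conditional binomial intervals, all at 95%. A gene counts as measured from 10 CPM in 1 of the libraries, log2 ratios carry a prior of 1 CPM, and a gene is past the fold at 1.5-fold. The ratio interval was tried on Poisson counts simulated from the pooled mesenchymal-like means. Those hold no spread between cells or libraries, so that run cannot speak to such spread. Shares carry Clopper-Pearson intervals in the tables. Intervals cover counting error only, and in a class sum fewer expressing cells and less RNA per cell cannot be told apart. All 10 iron genes are reported. Of the other lists, genes past 1.5-fold or among the 3 largest log2 ratios could be named, and for each iron gene of at least 50 CPM in some class up to 3 best-correlated genes. The genes and lists were chosen with earlier results of these data known.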

Additional observations from a re-analysis of the deposited data

Results flagged for a closer look

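Tfrc lay on opposite sides of 1 in the 2 main classes. Its cKO over WT ratio was 0.920 in mesenchymal-like cells and 1.24 in macrophage-like cells, and with 1 library per genotype the difference between the classes was not tested across samples. With the make-up of states or subsets held at that of WT the ratios were 0.992 and 1.26.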

How the results depend on the processing

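No paired analysis was possible because each genotype has 1 library, and for the same reason no library could be left out. There were 15 alternatives for mesenchymal-like and 14 for macrophage-like cells. Of these, holding the make-up at WT and adding Ftl1-ps1 to Ftl1 were chosen after seeing the data. A reversal was counted only for an iron gene past 1.5-fold as reported. Cp in macrophage-like cells was the only such gene, and it stayed lower in cKO in all 14. No iron gene was past it in mesenchymal-like cells, so none could be counted as reversed there. In mesenchymal-like cells the count of iron genes past 1.5-fold was 0 as reported. It was 2 of 8 (Trf and Slc40a1) with no doublet removal, where 1.87% of all genes were past it. With no minimum level it was 2 of 10 (Slc40a1 and Slc11a1, 21.8%). It was 1 of 8 (Slc40a1) with each cell weighted equally (3.73%) and 1 of 8 (Slc40a1) when scaled without mitochondrial and ribosomal protein genes (2.01%). Another of the 15 alternatives took cells of every class that held a Prrx1 UMI, so it is not a set of mesenchymal-like cells alone. That setting gave 2 of 8 (Trf and Slc40a1, 1.7%). In macrophage-like cells the count, 1 as reported, was 0 in cells with at least 20000 UMIs (3.68% of all genes) and 0 at a minimum of 50 CPM (1.23%), which leaves Cp out. The mesenchymal-like median log2 ratio, -0.01 as reported, was -0.20 with equal weight per cell, 0.24 at a minimum of 50 CPM, where 2 genes remained, and -0.18 with no minimum. Over the alternatives the log2 ratio of Fth1 lay between 0.05 and 0.30 in mesenchymal-like and between 0.21 and 0.28 in macrophage-like cells, that of Tfrc in macrophage-like cells between 0.28 and 0.34, that of Steap2 in mesenchymal-like cells between 0.24 and 0.28, and that of Cp between -0.48 and -0.37 and between -1.01 and -0.36. Slc40a1 ran from -1.18 to -0.10 in mesenchymal-like cells and from -0.37 to 0.06 in macrophage-like cells, where the WT make-up gave the value above 0. Values near 0 turned too, Slc11a2 in mesenchymal-like cells in 4 of 15 settings (-0.20 to 0.04) and Slc11a1 in macrophage-like cells in 1 of 14 (-0.00028 with each cell weighted equally), so each moved a gene between the counts of higher and lower. Unless stated, the cause of a difference was not tested.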
